A study of Drosophila melanogaster with 80 samples.

Results

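The response of whole adult females of the parental generation (F0) to a high-sucrose diet is described here across all genes of the array. The comparison holds 8 of the 80 arrays of the series, chosen by their titles: 4 of HSD-fed F0 females and 4 of CD-fed F0 females, all with the same batch label. HSD is a high-sucrose diet with 1 M sucrose, and CD is the control diet with 0.15 M sucrose. Every fly was an unmated female of Oregon R, a laboratory wild-type strain, and no transgene or mutation is named for either group. The flies lived 30 to a vial at 25 °C and ate their diet for 14 days. Their age label also reads 14 days, whereas the design text has them a few days old when the diets began. RNA came from whole flies, so the organs of a fly are pooled, and fewer cells of a type cannot be told apart from less RNA per cell. F0 males fed the same diets (8 arrays) and F1 and F2 females descended from CD-fed F0 males (8 arrays each) are used below for comparison.

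Dietary sucrose is cut by maltase-type alpha-glucosidases of the midgut, while secreted trypsin-like and chymotrypsin-like proteases, carboxypeptidases and lipases digest protein and fat. Absorbed sugar reaches the fat body, the fly's counterpart of liver and adipose tissue, which makes trehalose, glycogen and triglyceride. The transcription factors Mondo and Mlx respond to sugar inside cells, and sugarbabe (sug) is one of their targets. The adipokinetic hormone Akh mobilises stored sugar and fat through its receptor AkhR. In a virgin female the ovaries hold most of the dividing cells of the adult body, and mature eggs can be retained there.

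Each value below is the log2 signal of 1 probe set, a group of short probes for 1 transcript, after RMA, which corrects background, normalizes the arrays and summarises the probes. A change is the mean of the 4 HSD-fed arrays minus the mean of the 4 CD-fed arrays, so that a change of 1 is 2-fold. Of 11981 genes, 10273 were bright enough to test with limma, and a gene passed where its Benjamini-Hochberg adjusted p over all of them was under 0.05. The words rose and fell are used for genes that passed. Of the passing genes named below, Jon99Ci, Mal-A5, InR and foxo had at least 1 HSD array inside the range of the CD arrays. Whether the 4 arrays of a diet hold flies of separate vials is not given in the labels. Where vials were shared, the spread behind each p-value may be technical. No detection calls were used here, and precision is bounded by the 4 arrays a diet.

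The diets separated the arrays on the first principal component, which held 79.5% of the variance, and the second held 8.2%. Arrays of 1 diet correlated at 0.9945 or more, and arrays of different diets at 0.9862 or less. Array medians ran from 5.418 to 5.437 on HSD and from 5.416 to 5.447 on CD. The female label was checked against sex-limited genes. Yp1, which encodes a yolk protein, read 14.47 ± 0.04 on HSD and 14.50 ± 0.02 on CD (SD, n = 4 each). SP, the sex peptide of the male accessory gland, read 3.00 ± 0.09 on HSD and 3.17 ± 0.08 on CD, and Mst87F, a sperm-tail gene, read 3.15 ± 0.22 on HSD and 3.22 ± 0.12 on CD, at the bottom of the scale. Over the 16 testis genes measured, the summed linear signal of an array ran from 240 to 266 on HSD and from 240 to 243 on CD.

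Many genes differed between the diets by a little and few by much. Of 10273 genes tested, 4240 passed (41.3%), 2369 of them higher on HSD (23.1%) and 1871 lower (18.2%). These shares are the background for the counts of the gene lists below, several of which lie near them. The median change over all genes tested was 0.02. Rises outnumbered falls over all passing genes, and falls outnumbered rises among large changes. At least 2-fold changes were held by 71 genes that rose and 210 that fell, and changes of at least 4-fold by 18 and 50. At 16-fold or more, 3 genes rose and 6 fell. Among the genes at least 2-fold lower the median level was 7.81 on HSD and 9.30 on CD, and among those at least 2-fold higher it was 9.42 on HSD and 7.53 on CD. The plot of change against mean level shows the falls reaching down from bright genes.

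**Figure D1:**
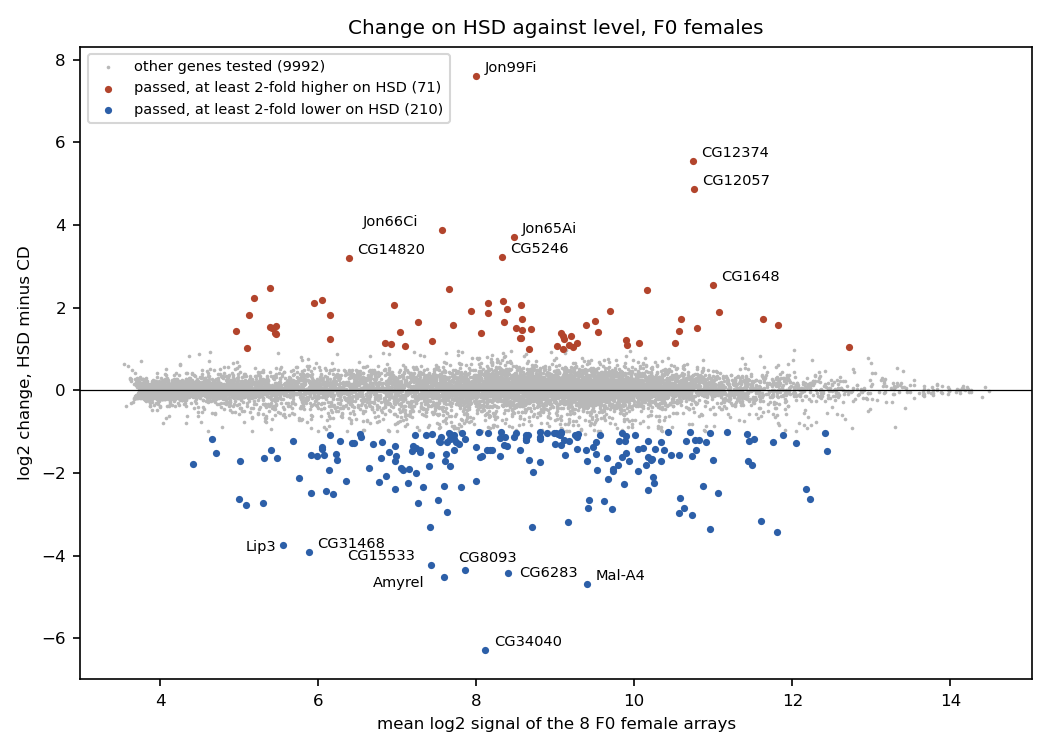
Change on HSD (log2, HSD minus CD) against the mean log2 level of the 8 arrays, 1 point per gene tested, with genes that passed and changed at least 2-fold in colour and the 8 largest changes of each direction named. The 71 coloured genes above 0 and the 210 below it reach 7.61 for Jon99Fi and -6.29 for CG34040.

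The largest rises were in genes of protein digestion. Jon99Fi, which encodes a secreted serine protease of the Jonah family made in the midgut, had 11.45, 11.99, 11.91 and 11.87 in HSD-fed females, against 4.34, 3.74, 4.18 and 4.51 in CD-fed females. Every HSD array lay more than 6 units above every CD array, and the change was 7.61 (SE 0.17, adjusted p = 8.59e-09). CG12374, a predicted secreted carboxypeptidase, had 13.37, 13.56, 13.57 and 13.58 in HSD-fed females, against 8.04, 7.83, 8.03 and 8.0 in CD-fed females. It had the smallest adjusted p of all genes, with a change of 5.55 (SE 0.07, adjusted p = 1.86e-10). The CD values of Jon99Fi lay near the threshold for dim genes (3.753), with CD array 2 below it, so the size of its change is uncertain there. Those of CG12374 lay well above it.

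Of 13 Jonah proteases tested, 12 rose and 1 fell, with a median change of 1.57. Behind Jon99Fi came Jon66Ci with 3.88, Jon65Ai with 3.71, Jon65Aii with 2.44 and Jon25Bii with 2.11. Jon44E (1.72), Jon25Biii (1.57), Jon25Bi (1.49) and Jon66Cii (1.24) also rose at least 2-fold, and Jon65Aiv, Jon74E and Jon65Aiii rose by 0.78, 0.63 and 0.47. Jon99Ci was the member that fell, by 0.24, and it did not pass when CD array 1, 3 or 4 was left out (adjusted p = 0.0779, 0.0666 and 0.0741). Averaged over the 13 genes, the HSD arrays read 10.50, 10.93, 10.82 and 10.78, against 8.62, 8.50, 8.76 and 8.72 in the CD arrays, and the 2 diets do not overlap. Jonah genes are close copies of each other, and probes shared between copies could not be checked here.

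Other digestive proteases did not move as 1 group. Of 14 trypsin-type genes tested, 6 rose and 6 fell, with a median change of 0.02. zetaTry rose by 1.66, yip7 by 1.05 and iotaTry by 0.81, while Try29F fell by 2.39, Ser6 by 1.51 and Ser8 by 0.69. Among 14 carboxypeptidases tested, 7 rose and 2 fell, with a median change of 0.26. CG14820 rose by 3.19, CG8560 by 1.15 and CG17633 by 0.83 behind CG12374, and the falls of CG4408 (-0.28) and CG4017 (-0.22) were small. CG5246, a predicted trypsin-like protease outside the list, rose by 3.23.

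Several of the largest rises were in genes with no named function in the files used here. CG12057 had 13.21, 13.17, 13.24 and 13.17 in HSD-fed females, against 8.27, 8.36, 8.06 and 8.58 in CD-fed females, a change of 4.88 (SE 0.09, adjusted p = 4.87e-09). The HSD arrays of this gene lie close together and the CD arrays lie far below them. CG1648, CG9825, CG31041, CG30043 and CG4830 rose by 2.54, 2.49, 2.44, 2.23 and 2.19, and MFS1, a transporter of the major facilitator family, by 2.12. CD array 1 of CG30043 lay below the threshold for dim genes (3.753), so the size of its rise is uncertain. All CD arrays of CG9825 lay near that threshold, and the size of its rise is uncertain too.

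Genes that release sugar from food fell together. All 12 maltase and amylase genes tested fell, with a median change of -2.12. The list named 14 genes, and Amyrel was the only amylase-type gene among the 12 tested. Mal-A4, an alpha-glucosidase, had 7.17, 7.13, 6.98 and 6.95 in HSD-fed females, against 11.61, 11.86, 11.73 and 11.83 in CD-fed females. Amyrel, an amylase-related gene, had 5.46, 5.13, 5.32 and 5.43 in HSD-fed females, against 9.64, 10.01, 9.83 and 9.93 in CD-fed females. In both genes the diets are more than 4 units apart at their nearest arrays, with changes of -4.70 (SE 0.07, adjusted p = 7.4e-10) and -4.52 (SE 0.09, adjusted p = 7.4e-09). Mal-A3, tobi, Mal-A2 and Mal-A7 fell, with changes of -3.30, -3.17, -2.66 and -2.41, and tobi, the target of brain insulin, is known as an alpha-glucosidase gene under hormonal control. Mal-A6 (-1.82), Mal-A8 (-1.70), Mal-A1 (-1.46), Mal-B2 (-1.23) and Mal-B1 (-1.02) fell at least 2-fold, and Mal-A5 fell by 0.33. The mean over the 12 genes was 8.92, 8.91, 8.80 and 8.81 in the HSD arrays, against 11.10, 11.31, 11.19 and 11.28 in the CD arrays.

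Sugar transporter genes fell as well, by less. Of 9 tested, 6 fell and 1 rose, with a median change of -0.24. The predicted transporters CG1208 and CG4607 fell, with changes of -1.71 and -1.61. Tret1-1, which carries trehalose out of fat body cells, fell by 0.44, and Glut1 rose by 0.20.

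Fat digestion genes were split. Among 14 digestive lipase genes tested, 7 fell and 2 rose, with a median change of -0.24. CG8093 had 5.74, 6.15, 5.44 and 5.38 in HSD-fed females, against 10.00, 10.08, 10.02 and 10.04 in CD-fed females, a change of -4.36 (SE 0.15, adjusted p = 8.3e-08). The arrays of the 2 diets are far apart. CG6283, Lip3, Lip2 and Lip4 fell, with changes of -4.42, -3.75, -2.11 and -1.19. The HSD mean of Lip3 lay under the threshold for dim genes (3.753), so the size of its fall is uncertain. The rises were of mag, the midgut lipase Magro, which also cleaves cholesterol esters, and of CG17192. mag had 11.08, 11.29, 11.39 and 11.37 in HSD-fed females, against 9.86, 9.88, 9.82 and 9.80 in CD-fed females, a change of 1.44 (SE 0.07, adjusted p = 7.01e-07), and CG17192 changed by 1.41. CG15533, a predicted sphingomyelinase, fell by 4.22, beside its neighbour CG15534 at -1.59.

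Sterol-binding genes moved in opposite directions by member. Npc2 proteins are small secreted or lysosomal sterol carriers, and several are made in the midgut. Npc2e had 9.70, 9.67, 9.08 and 8.68 in HSD-fed females, against 12.49, 12.77, 12.61 and 12.68 in CD-fed females, and its change was -3.36 (SE 0.21, adjusted p = 3.06e-06). Npc2h had 9.39, 9.47, 9.43 and 9.37 in HSD-fed females, against 7.11, 7.35, 7.28 and 7.31 in CD-fed females, and its change was 2.15 (SE 0.06, adjusted p = 1.99e-08). Neither gene has overlapping diets, and their directions are opposite. Npc2d and Npc2g rose by 1.59 and 1.21, while Npc2f and Npc2a fell, with changes of -1.72 and -0.56. Hr96, a nuclear receptor that controls mag and sterol genes, fell by 0.50. The 10 genes of this list gave 4 rises and 5 falls, with a median of -0.03.

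The gut lining changed beyond its enzymes. Of 8 peritrophic matrix genes, which form the chitin sheet that lines the midgut, 4 fell and 0 rose. Peritrophin-15b fell by 1.39, Peritrophin-15a by 0.88, Mur18B by 0.80 and Mur29B by 0.61. Of 9 genes of midgut stem and hormone-secreting cells, 4 rose and 2 fell (66.7%). The gut and brain peptide genes Dh31 and AstC rose by 0.57 and 0.47, and spi, an EGF-type ligand, by 0.43. nub, which encodes POU transcription factors of enterocytes, fell by 1.06, read from 1 of its 3 probe sets, and the other 2 are dim and changed by less than 0.05.

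**Figure D2:**
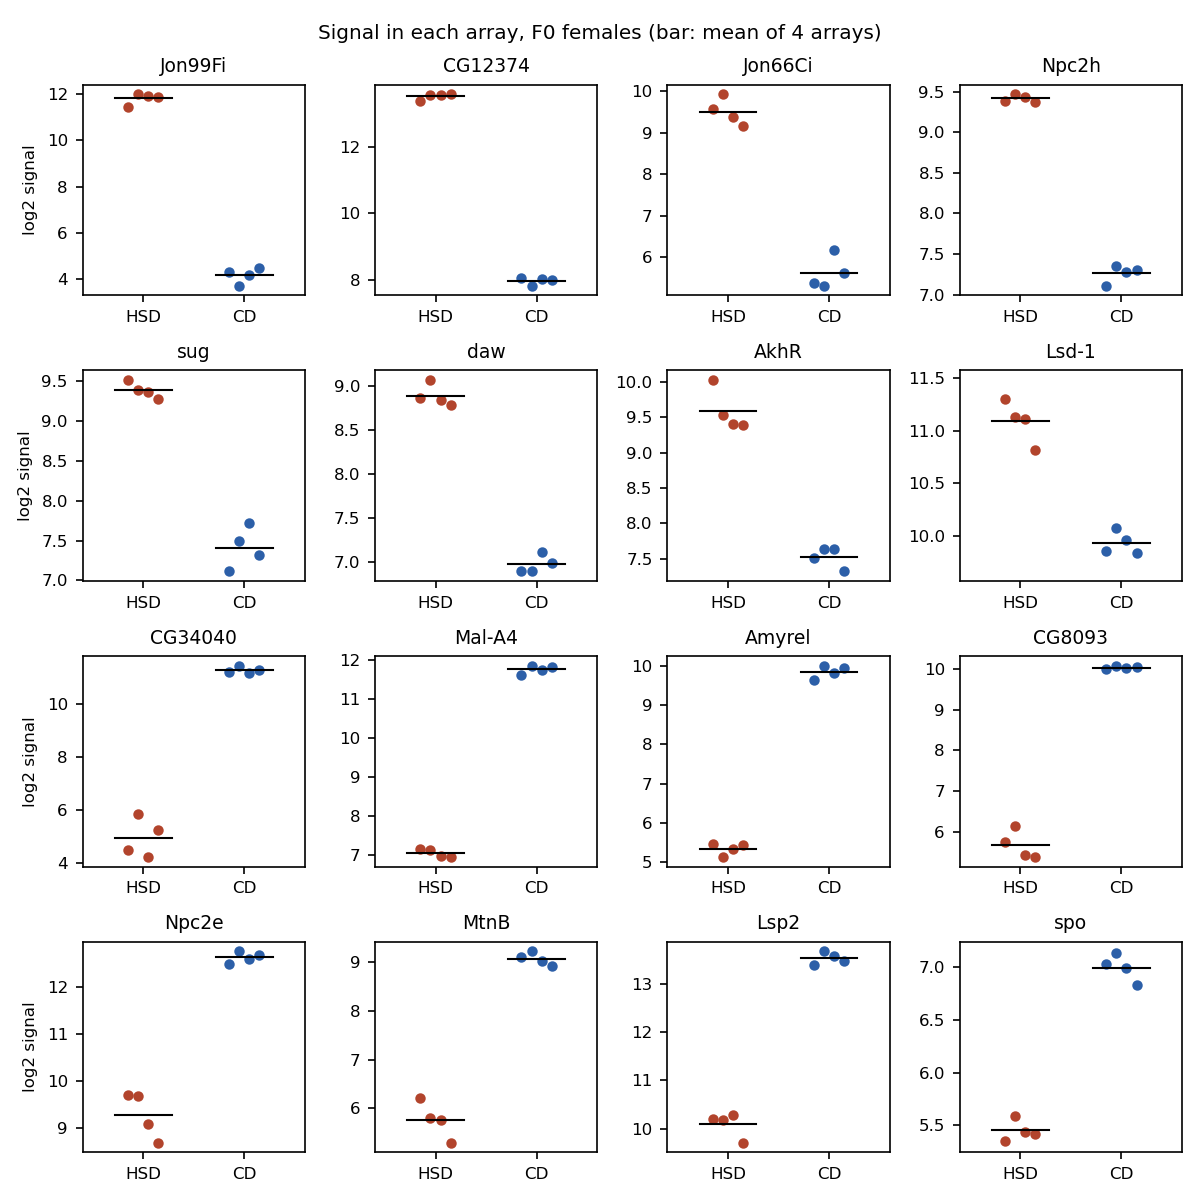
Log2 signal in each of the 8 arrays for 16 genes, with the 4 HSD arrays left of the 4 CD arrays in each panel and a bar at the group mean (each panel has its own axis). The upper 8 panels hold genes that rose and the lower 8 genes that fell, and in each of the 16 panels all HSD arrays lie on 1 side of all CD arrays.

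Several genes of sugar sensing and of metabolic hormones changed. Of 9 sugar-sensing regulators tested, 5 rose and 1 fell, with a median change of 0.22. sug, the zinc-finger factor downstream of Mondo and Mlx, had 9.51, 9.38, 9.36 and 9.27 in HSD-fed females, against 7.11, 7.5, 7.72 and 7.32 in CD-fed females. daw, an activin-type ligand that represses digestive enzyme genes in larvae, had 8.87, 9.07, 8.84 and 8.79 in HSD-fed females, against 6.89, 6.90, 7.11 and 6.99 in CD-fed females. All HSD values of both genes lay above all CD values, with changes of 1.97 (SE 0.12, adjusted p = 2.57e-06) and 1.92 (SE 0.07, adjusted p = 1.89e-07). HDAC4 rose by 0.28. The rises numbered 3 when HSD array 2 or 3 or CD array 1, 3 or 4 was left out, and the 1 fall, of Mondo itself (-0.14), did not pass without HSD array 3 or 4 or CD array 2 or 3.

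AkhR, the receptor of adipokinetic hormone, had 10.03, 9.54, 9.41 and 9.40 in HSD-fed females, against 7.51, 7.64, 7.64 and 7.32 in CD-fed females. Its change was 2.07 (SE 0.14, adjusted p = 5.74e-06), and a second, dimmer probe set changed by 1.34. The hormone gene Akh had 7.78, 7.62, 7.63 and 7.58 in HSD-fed females, against 7.94, 8.31, 8.08 and 8.17 in CD-fed females, a change of -0.47 (SE 0.08, adjusted p = 0.00125). Receptor and hormone thus passed in opposite directions, with no overlap of the diets in either. In the list of 19 insulin, TOR and adipokinetic genes, 6 rose and 2 fell, with a median of 0.07. That is 42.1% passing, about the 41.3% of all genes tested. Ilp8, a relaxin-like peptide of follicle cells and damaged discs, rose by 1.08, the neuropeptide gene sNPF by 0.55, the insulin receptor InR by 0.28 and Sdr, a secreted decoy of it, by 0.27. The falls were of Akh and foxo, the transcription factor held down by insulin, and foxo did not pass in 6 of the 8 fits that left out 1 array. Ilp2 and Ilp5, peptides of the insulin-producing cells of the brain, changed by -0.14 and -0.06 and did not pass, except for Ilp2 without HSD array 1 (adjusted p = 0.0378).

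Central sugar metabolism moved little beside the digestive genes. Of 11 glycolytic genes 3 fell and 1 rose, and Hex-C, the fat-body hexokinase, had the largest change at -1.09. Ald1, an aldolase gene, changed by 0.30 in its brightest probe set, and another of its probe sets had the opposite sign. Of 5 pentose phosphate genes 4 fell, among them CG8036 (-0.57, a predicted transketolase) and Taldo (-0.42, transaldolase). In the trehalose and glycogen list 4 of 8 fell and 1 rose. UGP, Treh and Pgm1 fell, with changes of -0.68, -0.46 and -0.36, while Tps1, which makes trehalose, rose by 0.44. Of 7 genes of gluconeogenesis and glycerol phosphate 3 fell and 1 rose, with a median of -0.08, and fbp, the gluconeogenic fructose-bisphosphatase, was lowest at -0.82. Of 15 genes of pyruvate and the TCA cycle 4 fell and 1 rose (2 without HSD array 4 or CD array 4), with Men-b, a malic enzyme, lowest at -0.34. Sodh1, a sorbitol dehydrogenase outside these lists, had 9.27, 9.42, 9.18 and 9.04 in HSD-fed females, against 12.11, 12.36, 12.12 and 12.36 in CD-fed females, a change of -3.01 (SE 0.09, adjusted p = 5.44e-08), with no overlap.

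Fat storage genes moved in both directions, with rises of the perilipin genes Lsd-1 and Lsd-2 and of Dgat2 among them. Lsd-1, a perilipin that coats lipid droplets and gates lipolysis, had 11.30, 11.12, 11.11 and 10.82 in HSD-fed females, against 9.86, 10.08, 9.96 and 9.84 in CD-fed females, a change of 1.15 (SE 0.10, adjusted p = 2.5e-05). Dgat2, a predicted diacylglycerol acyltransferase, had 6.99, 6.89, 6.55 and 6.25 in HSD-fed females, against 5.67, 5.94, 5.78 and 5.83 in CD-fed females, a change of 0.87 (SE 0.15, adjusted p = 0.00135). The diets do not overlap in either gene, and HSD arrays 3 and 4 of Dgat2 lie nearer to the CD arrays than the other two. Lsd-2, the second perilipin, rose by 0.58. Of the 11 genes of triglyceride synthesis and storage 4 rose and 5 fell, with falls in Agpat2 (-0.49) and Lpin (-0.43), which act upstream of Dgat2, and 3 falls without CD array 3. Among 10 genes of lipolysis and beta-oxidation 3 rose and 2 fell, with a median of 0.07, and the lipase gene bmm, the fly's ATGL, was lowest at -0.58. The 10 fatty acid synthesis genes gave 3 falls, of AcCoAS (-0.55), ACC (-0.42) and SREBP (-0.22), and 2 rises, 1 of them of Desat1 (0.23), with 1 rise without HSD array 1 or CD array 1 or 3. Of 7 genes of lipoproteins and their receptors 2 rose (1 without HSD array 2 or CD array 1 or 4) and 2 fell. LpR2, a lipoprotein receptor, rose by 0.56, and NLaz, a lipocalin, fell by 0.63.

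Falls outnumbered rises among genes of 1-carbon, nucleotide and amino acid metabolism. Of 17 serine, methionine and folate genes 14 fell and 1 rose, with a median change of -0.46. Sardh (-2.52, sarcosine dehydrogenase), CG3999 (-2.31, a predicted glycine dehydrogenase) and pug (-2.30, a folate enzyme) were lowest, before CG6415 (-1.34, a predicted glycine cleavage protein), Gnmt (-1.20, glycine N-methyltransferase), Shmt (-1.06, serine hydroxymethyltransferase) and Nmdmc (-1.05, a mitochondrial folate enzyme). The rise was of Ts (0.37), thymidylate synthase, which works beside DNA replication. Of 13 genes of purine synthesis and urate 11 fell and 0 rose, with a median of -0.30.

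Within purine synthesis the 2 amidotransferase genes, which encode the committed step, differed in size. Prat2 had 9.41, 9.39, 9.21 and 8.98 in HSD-fed females, against 10.97, 11.10, 10.91 and 11.27 in CD-fed females, a change of -1.82 (SE 0.11, adjusted p = 2.7e-06). Prat had 10.33, 10.28, 10.32 and 10.32 in HSD-fed females, against 10.50, 10.38, 10.41 and 10.42 in CD-fed females, a change of -0.11 (SE 0.04, adjusted p = 0.0492). The change of Prat2 is far outside the spread of its arrays, while Prat, whose diets do not overlap either, did not pass in 7 of the 8 fits that left out 1 array. Paics, Pfas and Adsl, which act on the next steps, fell, with changes of -0.97, -0.72 and -0.56. Of 7 pyrimidine genes 5 fell, with su(r), which degrades pyrimidines, at -1.15 and r, the trifunctional enzyme of synthesis, at -0.60. Of 16 genes of amino acid breakdown 12 fell and 0 rose, led by arg (-1.20, arginase), Oat (-0.97, ornithine aminotransferase) and Got1 (-0.80, an aspartate aminotransferase), with a median of -0.42.

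Ribosome biogenesis genes fell by less and in large number. Of 25 tested 18 fell and 0 rose, with a median change of -0.19. The RNA polymerase I subunit genes Polr1B, Polr1A and Polr1C fell, with changes of -0.67, -0.36 and -0.34, and the nucleolar genes wcd, Nle and nclb fell, with changes of -0.49, -0.47 and -0.43. Cytosolic ribosomal protein genes had a median change of -0.04, with 6 of 39 lower and 0 higher, and 3 lower when HSD array 2 or CD array 4 was left out. Proteasome genes went the other way, with 25 of 32 higher, 0 lower and a median of 0.20. Their rises were small and even, up to 0.38 for Prosalpha5 and 0.38 for Rpn12.

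Among detoxification genes, falls outnumbered rises. Of 33 glutathione transferase genes 19 fell and 1 rose, with a median change of -0.25. GstD5, GstD2, GstD8, GstD10 and GstD7 fell, with changes of -2.72, -2.66, -2.19, -1.89 and -1.59. Of 78 cytochrome P450 genes 31 fell and 14 rose, with a median of -0.12. Cyp9h1, Cyp309a2 and Cyp9b2 fell, with changes of -2.07, -1.99 and -1.57, and Cyp313a1, Cyp4e3 and Cyp12b2 rose by 1.01, 0.91 and 0.85. Of 32 UDP-glycosyltransferases 17 fell and 1 rose, with Ugt35C1 and Ugt37A2 lowest at -1.58 and -1.50. The 1 rise among the glutathione transferases did not pass without HSD array 3 or 4 or CD array 1, 3 or 4, and the rises numbered 2 without CD array 2. Without HSD array 1 or 3, 2 UDP-glycosyltransferases rose. The GstD genes are close copies, and probes that match more than 1 of them could not be checked.

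More metal-handling genes fell than rose. MtnB, a metallothionein, which binds copper and zinc in the gut, had 6.21, 5.80, 5.77 and 5.29 in HSD-fed females, against 9.11, 9.23, 9.02 and 8.93 in CD-fed females. MtnD had 9.32, 9.18, 9.09 and 8.74 in HSD-fed females, against 12, 12.15, 12.09 and 11.99 in CD-fed females. The diets are at least 2 units apart in both, with changes of -3.30 (SE 0.16, adjusted p = 8.66e-07) and -2.97 (SE 0.11, adjusted p = 1.51e-07). MtnC fell by 0.87, and MtnA by 0.21. Tsf1, the iron carrier transferrin, fell by 1.29 in the bright one of its probe sets, and ZnT35C, a zinc transporter of the Malpighian tubules, fell by 0.57. The list of 14 gave 8 falls and 1 rise (2 without HSD array 1), with a median of -0.19.

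Storage genes of the fat body passed about as often as the background, with 2 falls and 1 rise among 7. Lsp2, a hexamerin storage protein, had 10.20, 10.17, 10.29 and 9.71 in HSD-fed females, against 13.40, 13.68, 13.58 and 13.47 in CD-fed females, a change of -3.44 (SE 0.12, adjusted p = 1.1e-07). smp-30, a regucalcin-type gene, fell by 1.43. Fst (Frost), a gene induced by cold and dryness, had 7.49, 8.08, 7.35 and 7.34 in HSD-fed females, against 10.59, 10.87, 10.72 and 10.85 in CD-fed females, a change of -3.19 (SE 0.16, adjusted p = 7.95e-07). No overlap between the diets was seen for Lsp2 or Fst.

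In the list of the Imd pathway and peptidoglycan recognition 7 of 15 fell and 2 rose. PGRP-SB1, pirk, PGRP-SC2 and PGRP-LB, most of which remove peptidoglycan or damp the pathway, fell, with changes of -2.15, -1.83, -1.24 and -1.13, and Rel, its NF-kB factor, fell by 0.44. Of 21 genes for antimicrobial and Bomanin peptides tested, 7 fell and 0 rose, with BomS2 at -1.0 and Def at -0.98. Several antimicrobial genes varied widely within a diet. DptB, a diptericin, had 8.59, 10.27, 8.49 and 8.04 in HSD-fed females, against 11.16, 9.34, 8.06 and 11.10 in CD-fed females, and Mtk, metchnikowin, had 9.10, 10.84, 8.63 and 8.65 in HSD-fed females, against 10.85, 9.02, 8.62 and 11.23 in CD-fed females. CD arrays 1 and 4 and HSD array 2 were high for both genes, and the diets overlap (adjusted p = 0.274 and 0.504). Of 14 Toll pathway genes 5 rose and 3 fell, from spz (0.44), the ligand, to SPE (-1.02), the protease that cuts it.

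Cell cycle genes rose in step. Of 29 DNA replication genes 26 rose and 0 fell, with a median change of 0.43, and of 15 mitosis genes 14 rose and 0 fell, with a median of 0.55. Orc2 and CycE rose by 0.60 and 0.60, behind Orc1 with 0.69, and Incenp and cid, the centromeric histone, by 0.62 and 0.61. The mean over the 29 replication genes was 9.83, 9.87, 9.91 and 9.98 in HSD arrays, against 9.56, 9.42, 9.55 and 9.55 in CD arrays, and the mitosis genes averaged 9.90, 9.93, 10.00 and 10.06, against 9.52, 9.35, 9.49 and 9.52. The lowest HSD array lay above the highest CD array in both lists.

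Ovary genes were read beside them. Of 27 oocyte and germline genes 10 rose and 5 fell, with a median of 0.07. bam, which drives the first divisions of germline cysts, had 8.14, 8.21, 8.32 and 8.50 in HSD-fed females, against 7.51, 7.01, 7.41 and 7.48 in CD-fed females, a change of 0.94 (SE 0.12, adjusted p = 0.000253), with no overlap. BicC, png and exu rose by 0.48, 0.47 and 0.40, while aub, orb and grk fell, with changes of -0.41, -0.33 and -0.20. Whether the share of ovary in the RNA had a part in the cell cycle counts was not tested.

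Chorion genes, which build the outer eggshell, had the widest median spread of the lists in both diets, with an SD of 0.31 on HSD and 0.60 on CD. Of 11 vitelline membrane and follicle cell genes 5 rose and 0 fell, and of 7 chorion genes 1 rose, which did not pass without HSD array 2 or 3 or CD array 4. Vm32E had 11.32, 11.63, 11.77 and 11.48 in HSD-fed females, against 10.47, 9.55, 9.48 and 10.69 in CD-fed females, a change of 1.5 (SE 0.27, adjusted p = 0.00182). The chorion gene Cp18 had 12.67, 11.79, 12.45 and 12.64 in HSD-fed females, against 12.39, 11.21, 12.70 and 10.28 in CD-fed females and did not pass (adjusted p = 0.252). CD arrays 2 and 4 were low for the chorion genes. Averaged over the 7 chorion genes the HSD arrays read 12.65, 12.27, 12.73 and 12.66, against 12.61, 11.44, 12.64 and 11.39 in the CD arrays, so the diets overlap. Of the 3 yolk protein genes, Yp2 fell by 0.17 (adjusted p = 0.0226), and it did not pass without CD array 3 or 4. Yp1 and Yp3 changed by -0.02 and 0.11 and did not pass. Yp3 passed without HSD array 1 (adjusted p = 0.0115), with the dim filter at the 50th percentile, with array weights and with a trended robust variance prior.

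Several genes of ecdysone synthesis fell. spo, an early enzyme of the pathway that is expressed in ovaries, had 5.35, 5.59, 5.44 and 5.42 in HSD-fed females, against 7.03, 7.13, 7.00 and 6.84 in CD-fed females, a change of -1.55 (SE 0.07, adjusted p = 6.11e-07). sad and dib, which act later in the pathway, fell, with changes of -0.67 and -0.48. Cyp18a1, which inactivates ecdysteroids, rose by 0.79. The diets do not overlap in any of these 4 genes. In the list of 19 ecdysone and juvenile hormone genes 7 fell and 4 rose, and 2 rose when HSD array 2 or 3 or CD array 2 or 4 was left out.

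Muscle, nerve and eye genes rose or did not pass, and over all genes tested 23.1% rose. Of 19 muscle genes 9 rose (47.4%) and 0 fell, with a median of 0.21. Act88F, the actin of the flight muscle, had 9.91, 9.43, 9.01 and 8.40 in HSD-fed females, against 7.39, 7.40, 7.33 and 8.0 in CD-fed females, a change of 1.66 (SE 0.29, adjusted p = 0.00169), and HSD array 4 lay close to CD array 4. Of 14 phototransduction genes 7 rose, with trp at 0.50, and of 17 neuronal genes 5 rose, with Snap25, a synaptic protein, at 0.55. None of either list fell, and the neuronal rises numbered 8 without HSD array 4 and 10 after a further quantile normalization. HSD array 1 had the highest mean of the 8 arrays in all 3 lists. Of 7 heat shock chaperone genes tested 3 rose and 2 fell, with a median of 0.11. The small heat shock genes Hsp27 and Hsp26, which are expressed in ovaries as well as under stress, rose by 0.97 and 0.67, while Hsp68 fell by 0.41.

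The remaining lists were read beside the background of 41.3%. Among 34 odorant-binding protein genes 6 rose and 5 fell, with the fall count at 3 without HSD array 3 or 4 or CD array 3. The 7 Turandot and JAK-STAT genes gave 0 calls by limma, with 0 at an unadjusted p under 0.05 as well and 1 rise without HSD array 1, and TotC, a stress peptide, had 6.70, 8.06, 9.67 and 10.05 in HSD-fed females, against 8.43, 10.34, 9.61 and 7.5 in CD-fed females. Hemocyte genes passed in 9 of 14, with 4 rises and 5 falls among them Hml at 0.62 and eater at -0.39. Lists described with 0 genes in 1 direction also had 0 there at an unadjusted p under 0.05 by limma, the only tool run. The exceptions were 1 cytosolic ribosomal protein gene and the yolk protein gene Yp3, both higher on HSD.

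**Figure D3:**
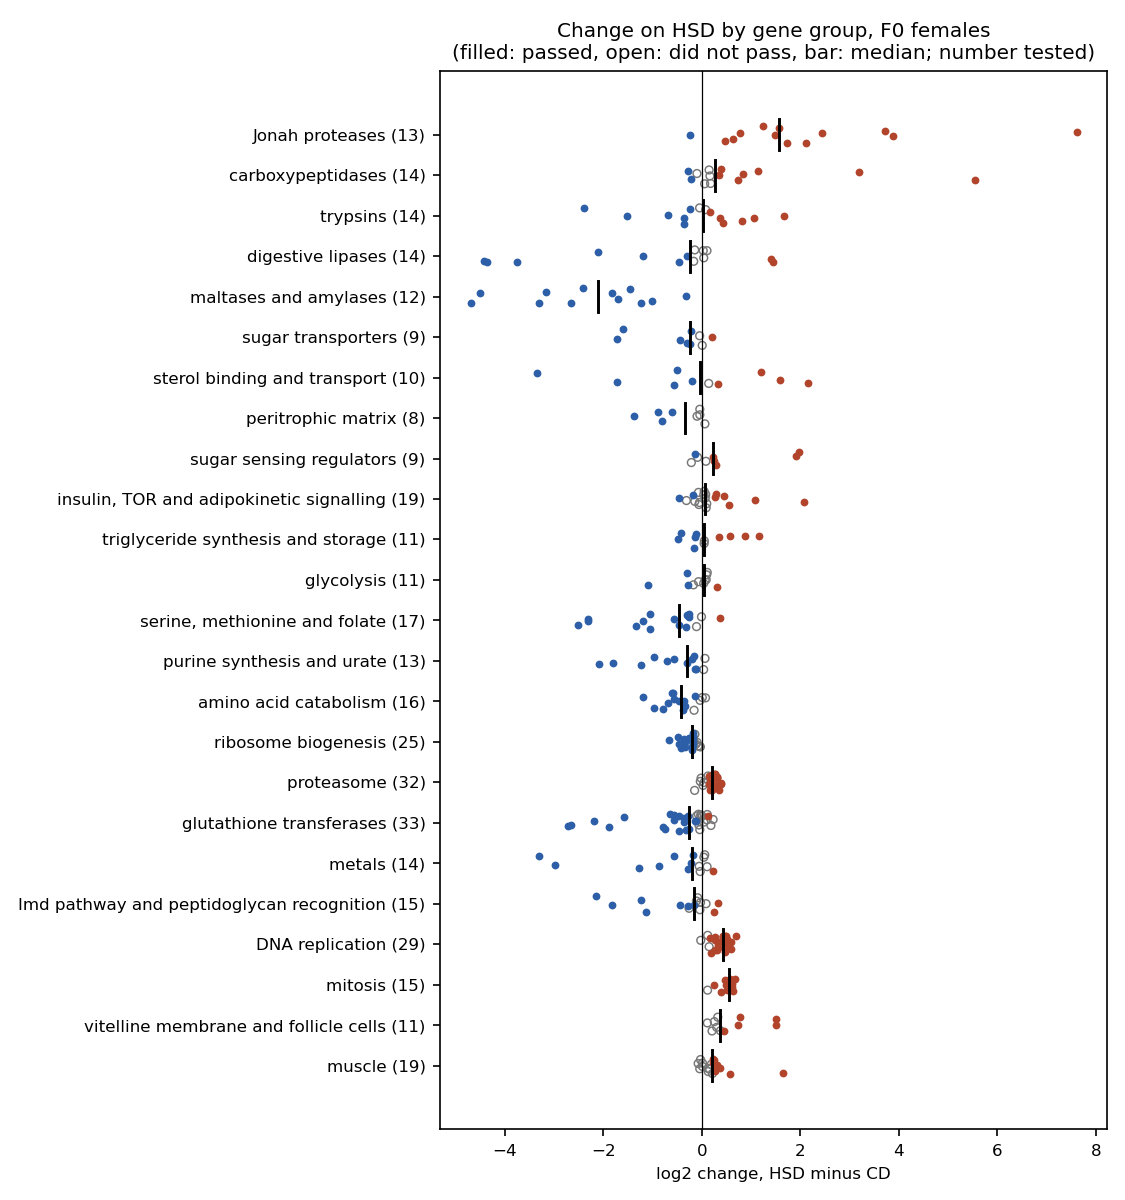
Change on HSD (log2, HSD minus CD) of the tested members of 24 gene groups, 1 point per gene, filled where the gene passed, with a bar at the median of the group. All but 1 of the Jonah proteases sit right of 0 and maltases and amylases left of it, each group spread over several units. Proteasome, ribosome biogenesis and cell cycle genes lie in narrow bands whose medians are off 0.

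Large changes were more common in the gene next to a large change of the same direction than among all genes tested. In the order of the RefSeq annotation (Release 6 plus ISO1 MT), the next tested gene was also at least 2-fold lower for 34 of the 210 genes at least 2-fold lower (16.2%), while such genes were 2.04% of all genes tested. Of the 71 genes at least 2-fold higher, 8 had a next tested gene that was also at least 2-fold higher (11.3%), against 0.691% of all genes tested. In all, 57 of the 210 falls lay in 23 runs and 15 of the 71 rises in 7 runs, so most lay in none. Many runs hold copies of 1 gene family, so these are not independent observations.

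The longest run was CG33307, CG8997, CG7916, CG7953 and CG7968, 5 genes with no function in the files used here. CG7953 had 10.96, 11.05, 10.89 and 10.76 in HSD-fed females, against 13.48, 13.57, 13.54 and 13.58 in CD-fed females, and CG8997 had 10.83, 11.09, 11.03 and 10.95 in HSD-fed females, against 13.32, 13.41, 13.35 and 13.39 in CD-fed females. The diets are over 2 units apart in both. Its flanking genes CenG1A (-0.09) and Ance (-0.12) did not pass. The changes along the run were -1.04, -2.39, -1.71, -2.63 and -1.65. Mal-A1 to Mal-A4 and Mal-A6 to Mal-A8 with CG12780 formed runs of 4, with Mal-A5 between them at -0.33. CG34040 lay beside CG4363 (-1.70) and CG4377 (-2.25). CG34040 had the largest fall of all genes, with 4.52, 5.85, 4.24 and 5.26 in HSD-fed females, against 11.18, 11.43, 11.17 and 11.27 in CD-fed females, a change of -6.29 (SE 0.30, adjusted p = 7.52e-07), and its second probe set changed by -5.55. Among the 7 runs of rises were Jon25Biii with Jon25Bii and Jon25Bi, Jon65Aii with Jon65Ai, Jon66Ci with Jon66Cii, and Npc2g with Npc2h.

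**Figure D4:**
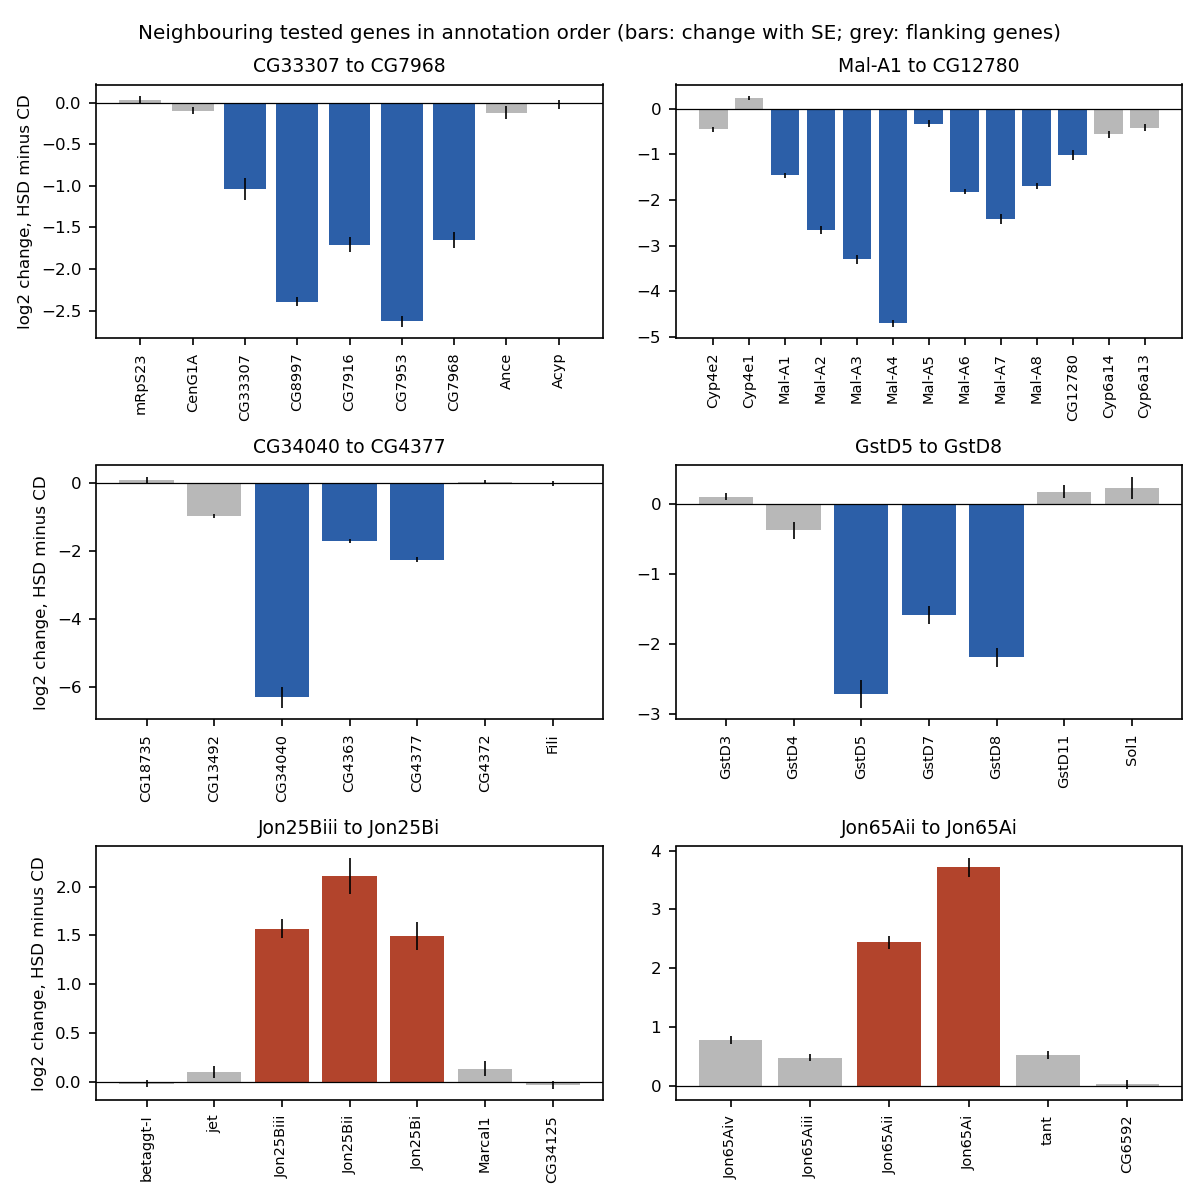
Change on HSD (log2, HSD minus CD, bars, with the standard error) of neighbouring genes in annotation order for 6 stretches of the genome, gene order only and not to scale. Coloured bars point 1 way within a stretch, with CG7953 lowest at -2.63 in the first and Mal-A5 shortest at -0.33 in the maltase stretch. Grey bars are the 2 flanking genes on each side, the longest of which are CG13492 at -0.96 and Jon65Aiv at 0.78.

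Most genes of the Jonah list and of the maltase and amylase list changed less in F0 males on the same diets than in females. In males 3354 of 10983 genes passed (30.5%), and the female change differed from the male change for 3469 of 11207 genes (31%). The arrays of the sexes were treated as normalized apart, and each diet change was taken within its own sex. Jon99Fi rose by 7.61 in females, against 2.49 in males, a difference of 5.12 (SE 0.34, adjusted p = 2.49e-08). Jon66Ci and Jon65Ai changed by 3.88 and 3.71 in females, against 0.23 and 0.21 in males, differences of 3.65 and 3.50. CG34040 fell by 6.29 in females and by 1.71 in males, a difference of -4.58 (SE 0.33, adjusted p = 5.3e-08). CG31468 changed by -3.92 in females, against 0.24 in males, a difference of -4.16 (SE 0.15, adjusted p = 2.07e-11). Its female HSD values lay near the threshold for dim genes (3.753), with HSD array 2 below it, so the size of this difference is uncertain. The level of CG31468 in males was 12.76 on HSD and 12.52 on CD, against 7.85 in CD-fed females. Whether these unlike levels had a part in the difference was not tested. CG8093, CG15533 and Mal-A3 differed by -3.96, -3.83 and -2.95. For these genes the female change was several times the male one or was the larger of opposite changes.

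Several gene groups differed between the sexes. The difference passed for 9 of 13 Jonah genes, all toward a higher change in females, and for 9 of 12 maltase and amylase genes, all toward a lower one. Their median change was 1.57 in females and 0.23 in males for Jonah genes, and -2.12 and -0.52 for maltases and amylases. Ribosome biogenesis genes differed in 17 of 25, all lower in females, with a median of -0.19 in females and 0.03 in males. DNA replication genes differed in 20 of 29, all higher in females, and 0 of 29 passed in males by limma, with 2 at an unadjusted p under 0.05, 1 in each direction, and a median change of 0.05. Carboxypeptidase genes had medians of 0.26 in females and 0.24 in males and 7 rises in each, and the lipase gene CG17192 changed by 1.41 in females, against 1.85 in males. Purine genes moved in both sexes, with 11 of 13 lower in females and 10 of 13 in males and medians of -0.30 and -0.40.

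Most genes that changed at least 2-fold in females passed in the same direction in males. Of the 71 genes at least 2-fold higher in females 66 were tested in males, where 51 passed as higher and 1 as lower, with a median change of 1.53 in females and 0.62 in males. Of the 210 at least 2-fold lower in females 207 were tested in males, where 170 passed as lower and 8 as higher, with medians of -1.48 in females and -0.56 in males. These genes were chosen for the size of their female change, so a smaller male change is partly built in and carries no test.

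**Figure D5:**
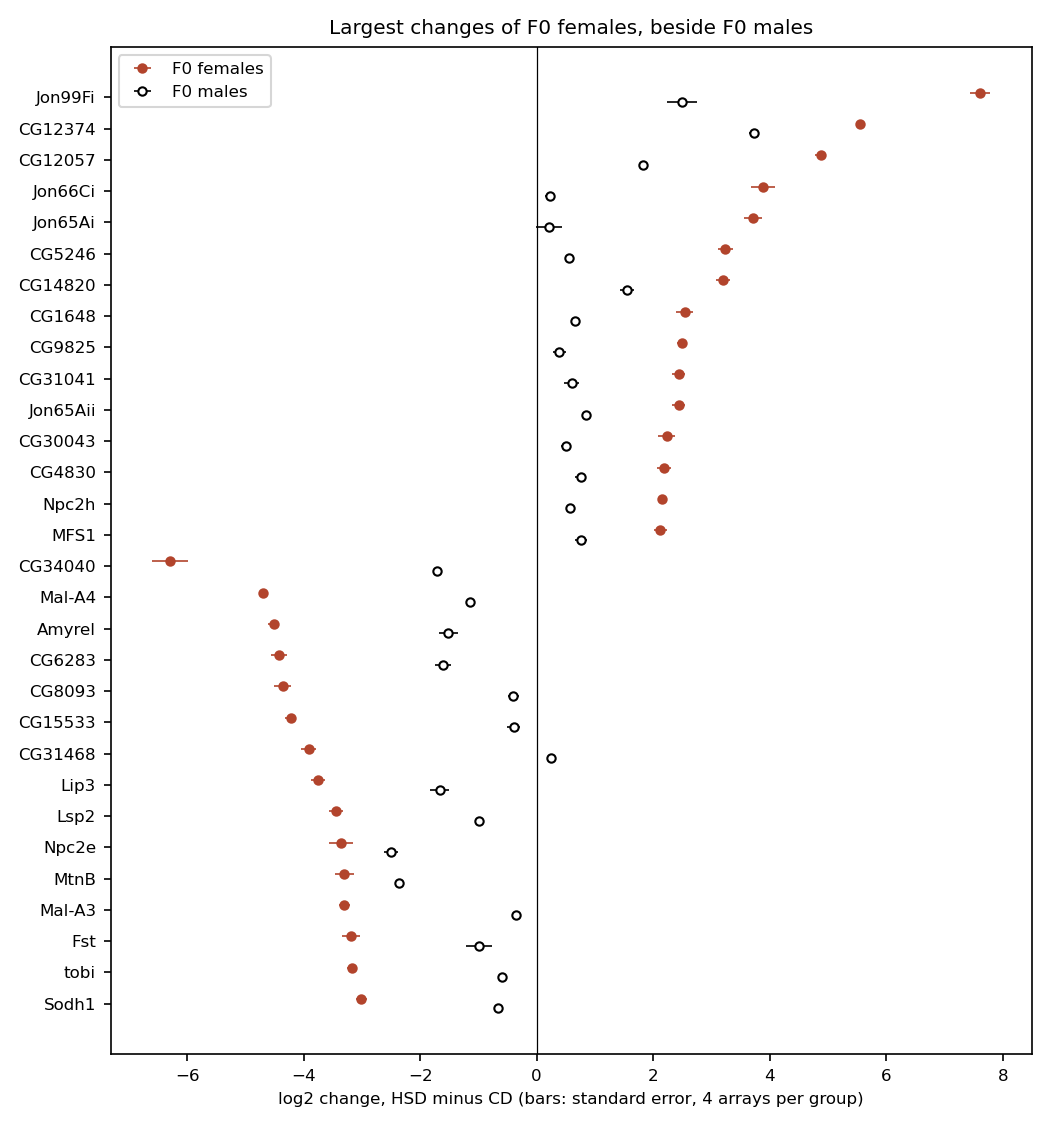
Change on HSD (log2, HSD minus CD) with its standard error in F0 females (filled) and F0 males (open) for the 15 largest rises and 15 largest falls of females, 1 gene per row. The female point is the farther from 0 in each row, with a difference of 5.12 for Jon99Fi and -4.58 for CG34040.

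F1 and F2 females descended from CD-fed F0 males and fed HSD or CD themselves were read as within-array percentiles, since each diet there carries a batch label of its own and was normalized apart. Own diet and labelled batch cannot be told apart in them, so this is a description only. Of the 71 genes at least 2-fold higher in F0 females, all 4 HSD-fed arrays lay above all 4 CD-fed arrays for 60 in F1 (84.5%), 47 in F2 (66.2%) and 45 in both. Over all genes tested the same held for 37.2% in F1 and 34.7% in F2. Of the 210 genes at least 2-fold lower in F0 females, the HSD-fed arrays lay below the CD-fed arrays for 188 in F1 (89.5%), 191 in F2 (91.0%) and 180 in both, against 35.8% and 33.7% of all genes tested. Jon25Bi and Jon25Bii, which rose in F0 females, were lower on HSD in F1 and F2. Jon25Bii had a median percentile of 75.2 on HSD and 45.5 on CD in F0, of 39.8 and 50.7 in F1 and of 40.5 and 45.0 in F2. Jon99Fi had 97.4 on HSD and 23.4 on CD in F0, 96.9 and 22.2 in F1 and 96.7 and 31.4 in F2. CG34040 read 30.5 on HSD and 95.0 on CD in F0, 54.8 and 97.4 in F1 and 63.6 and 92.9 in F2.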

How the data were processed

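Per the labels, total RNA of whole flies (250 ng) was amplified from the 3' end, labelled with biotin and hybridised to Affymetrix Drosophila Genome 2.0 arrays. The authors deposited log2 values summarised by probe set with RMA, per the submitters' processing notes, which also name limma, without versions. They ran from 2.37 to 14.53 in the 8 F0 female arrays, which share 1 labelled batch.

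Of 18952 probe sets, 183 controls, 402 with several gene symbols and 4721 with none were left out. The 13646 others name 11981 genes, and for genes with several probe sets the one brightest over the 80 arrays was used. Genes whose mean fell below the 25th percentile (3.753) in both diets were not tested. Diet was tested with limma 3.58.1 (two-sided, default settings, Benjamini-Hochberg threshold 0.05) in R 4.3.3 on the 8 arrays, and the difference between the sexes on the 16 F0 arrays. F0 males and F0 females had been found earlier to be separately normalized sets, despite their shared batch label. The diets of each sex were therefore contrasted within its own set. Of genes changed in simulated data by 0.25, 0.5, 1 and 2, 58%, 82%, 98% and 100% were recovered, with 6 false calls among 10259 genes. Only 50 genes were changed at each size, all more than 1 unit above the dim threshold. In the data 4240 genes passed, so these rates may not carry over, least of all to dim genes.

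Named are the 15 largest rises and falls with no overlap of the diets, list members beside their counts, and the 8 largest differences between the sexes in each direction, each given in part. Flanking genes of 1 run were named after their values were seen. Of 211 genes given with values, 20 have a probe set whose name marks matches to several transcripts or genes. The gene lists and the genes described were chosen with earlier results of these data known. RefSeq gave names and gene order only.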

Additional observations from a re-analysis of the deposited data

Results flagged for a closer look

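Among the genes the text names, 422 pairs of a gene and a diet group of F0 females were tested for 1 array that stands apart from the other three (Dixon's test), and 23 pairs had one. Chance alone marks about 1 pair in 20. HSD array 1 was the outlying array in 8 of the 23, and no other array in more than 3. All values here are log2 probe intensities after RMA.

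HSD array 1 was the lowest of its group for 4 protease genes, at 13.37 for the carboxypeptidase gene CG12374, 8.94 for Jon25Bi, 8.56 for Jon25Bii and 9.94 for Jon65Ai. Without that array the HSD minus CD change of Jon25Bi was 1.66, against 1.49 with it, and that of Jon25Bii was 2.32, against 2.11. HSD array 1 was also the highest of its group for the glucose transporter gene Glut1 (8.39), the maltase gene Mal-A5 (10.47), the proteasome subunit gene Prosalpha5 (12.35) and grk (8.81).

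The next 6 outlying values lay in the other HSD arrays. HSD array 2 was highest for CG4607 (7.52) and lowest for the thymidylate synthase gene Ts (9.66). HSD array 3 was lowest for the perilipin gene Lsd-2 (11.91). HSD array 4 was lowest for CG7916 (10.31), the heat shock gene Hsp68 (6.13) and the transaldolase gene Taldo (11.47).

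In CD females, array 1 was lowest for Cyp12b2 (6.68). CD array 2 was highest for the trehalose transporter gene Tret1-1 (11.42) and the haemocyte receptor gene eater (5.92), and lowest for the replication origin gene Orc1 (9.54). CD array 3 was highest for the glycine methyltransferase gene Gnmt (11.53) and lowest for spi (8.94). CD array 4 was highest for the flight muscle actin gene Act88F (8.0) and for CG9825 (4.28), and lowest for the lipophorin receptor gene LpR2 (8.88).

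The response to diet differed between the sexes for 157 of the 211 named genes, Mal-A4 and Amyrel among them, against 3469 of 11207 genes tested (31%). Many named genes were chosen for a large female change or a large difference between the sexes, so a higher share is partly built in. Differences that passed are given here for 8 genes (limma test of the difference itself, 8 female and 8 male F0 arrays, Benjamini-Hochberg adjusted over all genes tested). The female change exceeded the male change by 5.12 for Jon99Fi (adjusted p = 2.49e-08), by 3.65 for Jon66Ci (adjusted p = 2.09e-08) and by 3.50 for Jon65Ai (adjusted p = 3.96e-07), all 3 of them serine protease genes. The female change minus the male change was -4.58 for CG34040 (adjusted p = 5.3e-08), -4.16 for CG31468 (adjusted p = 2.07e-11) and -3.96 for CG8093 (adjusted p = 2.67e-10). It was -3.83 for CG15533 (adjusted p = 5.44e-11) and -2.95 for the maltase gene Mal-A3 (adjusted p = 2.65e-11). CD array 2 of Jon99Fi and HSD array 2 of CG31468 lay below the threshold for dim genes, so the sizes for these genes are uncertain. HSD arrays 1 and 3 of CG34040 lay near that threshold, so its size is uncertain too. CG31468 also had a far higher level in CD-fed males (12.52) than in CD-fed females (7.85).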

How the results depend on the processing

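The count of 4240 genes that passed in F0 females was 4142 with no dim filter, 4247 with the filter at the 50th percentile, 4331 with quantile normalization, 4727 with all 16 F0 arrays in the fit, 4897 with array weights, and between 3659 and 4416 on leaving out each array in turn. The arrays' replicate numbers did not pair them (correlations of same-numbered deviations from -0.321 to 0.114), and with the replicate number as a block the count was 3531. The count of 3469 genes whose change differed between the sexes was 2766 with that block and between 3004 and 3658 on leaving out each array. Tested against a change of at least 0.5 with limma's treat, 393 genes passed, where 927 both passed the ordinary test and had a fitted change of at least 0.5.

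For the 209 genes followed through every alternative, 3507 of 3550 refits kept the direction and the side of the threshold, 32 lost the call and 5 gained it. In 6 the direction turned or the change came to 0. Yp1 was at 0.00 with quantile normalization and Ald1 at -0.050 with the mean of all its probe sets. On leaving out single arrays TotC ran from -0.84 to 0.29 and Ilp5 from -0.17 to 0.058. Of these only Ald1 had passed. The cause was not tested. The genes that lost the call under the block or another alternative were InR, MtnA, Jon99Ci, Mondo, Prat, foxo and Yp2. Counts over the gene lists moved by more than 1.5 times in 198 of 2108 refits.

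With 4 arrays a group, changes of 0.25 were recovered for 58% of the bright genes changed in simulated data, so a gene that did not pass may still differ. The planned description of promoter motifs was not run, because it needs sequences not used here.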

Other observations

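Genes of mitochondria and cuticle stood at or below the share of 41.3% that passed over all genes tested. Of 66 respiratory chain genes tested 7 rose and 4 fell (16.7%), with a median change of 0.01, and 1 to 11 rose when single arrays were left out. COX7AL2, a gene for a variant of a cytochrome c oxidase subunit, had the largest rise among them at 0.52. Of 69 mitochondrial ribosomal protein genes 16 fell and 6 rose (31.9%), with a median of -0.03. The falls numbered 9 without HSD array 2 or CD array 4, and the rises 3 without CD array 3. Of 76 cuticle protein genes 9 fell and 4 rose (17.1%), none of them by 2-fold or more, and 5 fell without HSD array 1 or 2 or CD array 1 or 4.

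Antioxidant defence genes changed by little. Of 10 tested 6 fell and 2 rose, with a median of -0.14. Cat, which encodes catalase, changed by -0.36, and Gclc, the catalytic subunit of glutathione synthesis, by -0.22. The regulator gene cnc, the fly's Nrf2, changed by -0.24. All 3 passed.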
